A study of Mus musculus with 10 samples.

Results

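Of the 21959 genes in the expression table, 42 were taken by name as genes of glycolysis, of lactate and pyruvate handling and of the response to low oxygen. They comprised 2 glucose transporters, 15 glycolytic enzymes, 2 regulators of glycolysis, 5 genes that handle lactate or pyruvate, 2 alpha subunits of hypoxia-inducible factor (HIF) and 16 hypoxia-inducible genes outside glycolysis. The genes were measured by mRNA sequencing in 10 4T1 tumors, with 1 library per mouse. 4T1 is a mouse mammary carcinoma line, and all tumors came from this single line placed under the abdominal skin of female BALB/c mice aged 5 to 6 weeks. The exercise group (E, 5 tumors) had a wheel for voluntary running for 21 days, with no set speed or distance, and the non-exercise group (NE, 5 tumors) was kept under normal husbandry for the same time. The tumors are called E1 to E5 and NE1 to NE5 after their labels.

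Glycolysis splits glucose into pyruvate in the cytosol, and lactate dehydrogenase turns pyruvate into lactate, which leaves the cell through monocarboxylate transporters. Many tumors run this route at a high rate even when oxygen is present. When oxygen is scarce, the alpha subunits of HIF escape hydroxylation by the EGLN enzymes, pair with ARNT and bind DNA with the core ACGTG or GCGTG. HIF-1 raises most glycolytic enzymes, while other targets govern mitophagy, blood vessel growth, pH and the oxygen sensor itself.

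Between 15045613 and 20646763 reads were counted per E tumor and between 18706032 and 23092251 per NE tumor. Values between groups are given as CPM, that is read counts scaled to a common library total, with the TMM factor included, and levels between genes as FPKM, which is also divided by gene length. All 42 genes passed the filter on low counts and were among the 13517 genes tested. The lowest was Stc2 with 12 to 58 reads per tumor, followed by Car9 with 30 to 62. The libraries stood apart most in skeletal muscle RNA. The summed CPM of 12 muscle markers was 308 to 4209 in E and 6.58 to 30459.6 in NE, where NE4 was highest and NE1 lowest. All 12 were detected in at least 1 tumor, 11 passed the filter, and 3 had no read in at least 1 tumor, namely Tnnc2, Pvalb and Myh4, all at 0 in NE1. Of 10 epithelial markers only 5 passed the filter, and the 1 with most reads, Krt19, lay between 8.42 and 23.7 CPM, so that the epithelial label of the line was carried by few reads. In bulk tumor RNA, fewer cells of a type and less RNA per cell cannot be told apart.

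The levels of the 42 genes spanned more than 3 orders of magnitude per length. Pgk1, the phosphoglycerate kinase that makes ATP in the lower part of the pathway, had the highest median over the 10 tumors (419 FPKM). It was followed by Pkm (399 FPKM), the last enzyme of the pathway, Ldha (316 FPKM), which makes lactate, Tpi1 (298 FPKM), Aldoa (286 FPKM) and Eno1 (242 FPKM). The top 4 overlapped between neighbours, since Pgk1 ranged from 343 to 601 FPKM and Pkm from 349 to 497 FPKM over the tumors. The hexokinases and phosphofructokinases, which act early in the pathway, were read at lower levels. Their medians were 31.2 FPKM for Hk1 and 27.4 FPKM for Hk2, the hexokinases that trap glucose, and 35.4, 21.5 and 19.2 FPKM for the phosphofructokinases Pfkl, Pfkm and Pfkp. Among genes of the hypoxia response, the collagen prolyl hydroxylase P4ha1 (78.4 FPKM), the lipid droplet protein Plin2 (79.8 FPKM), Egln3 (53.8 FPKM) and the mitophagy receptor Bnip3l (50.9 FPKM) were highest. Car9, the cell surface carbonic anhydrase used as a marker of hypoxia, was near the bottom with 0.969 FPKM, and only the secreted glycoprotein Stc2 was lower (0.203 FPKM).

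**Figure D1:**
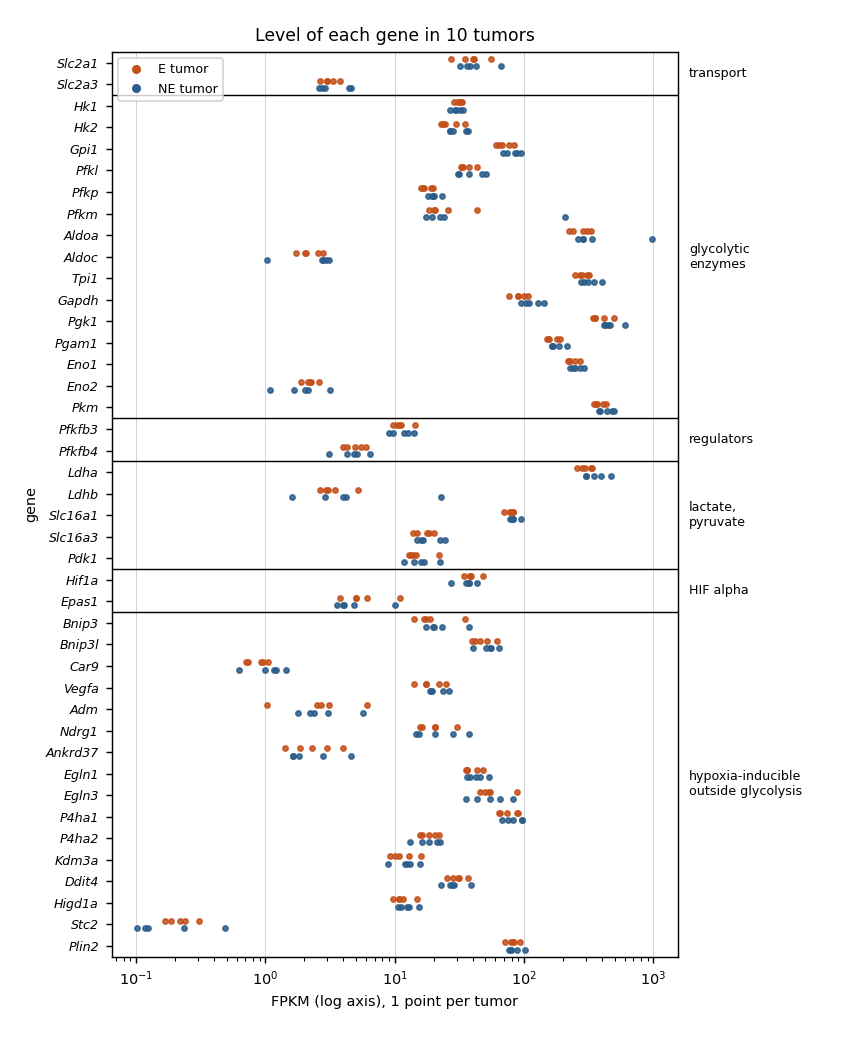
FPKM of the 42 genes on a log axis, 1 point per tumor, with E in orange and NE in blue, ordered by role. Pgk1, Pkm and Ldha lie near the right edge in both groups, Car9 and Stc2 near the left, and the single points far to the right in Pfkm, Aldoa and Ldhb are NE4.

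Several of these levels rest on sequence that other genes share. Of all stretches of 50 bases in the annotated transcripts, the share that also occurs in a transcript of another gene was 53.9% for Pgk1, 36.2% for Pgam1, 26.0% for Eno1, 25.8% for Pkm, 24.7% for Gapdh, 21.0% for Ldhb, 20.8% for Bnip3l and 16.5% for Bnip3. These copies include processed pseudogenes, and how the counting assigned such reads is not given in the sources used here, so the levels of these 8 genes are uncertain. None of the stretches was shared between 2 of the 42 genes. Aldoa had 2 rows in the table, and the row used here is the aldolase gene itself. The other row, an upstream gene on the same strand that carries the same symbol, had 0.618 to 14.04 CPM and was kept apart.

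Whether running changed these genes was asked by comparing the 5 E with the 5 NE tumors. A call needed a fold change of 2 or more and a false discovery rate (FDR) no higher than 0.05, and none of the 42 genes met it (quasi-likelihood test of edgeR, p adjusted over 13517 genes by Benjamini-Hochberg), and none did with edgeR's exact test, DESeq2 or limma. The share of all genes tested that did so was 0%. The lowest FDR of any gene was 0.897 in the quasi-likelihood test, 0.294 with limma-voom and 0.00045 with DESeq2, in which no gene met both limits. An unadjusted p no higher than 0.05 was found for 3 of the 42, each lower in E, where 2.29% of all genes tested were lower and 2.57% were higher at this limit (4.86% in all, 657 genes). With the replicate number as a block only 1 of the 3, Gapdh, remained at this limit. None of the 42 genes separated the groups without overlap, which 0.725% of all genes did. Fitted log2 fold changes (E minus NE) were below 0 for 33 of the 42 genes, against 54.0% of all genes tested, with a median of -0.15 against -0.01 over all genes. Single tumors moved this median, which was -0.06 without NE5 (29 of 42 below 0) and -0.25 without E3 (36 of 42 below 0). On log2(FPKM + 1), without the TMM factor, 32 of the 42 genes were below 0 against 43.5% of all genes. The genes are not independent of each other, and the median has no test here.

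**Figure D2:**
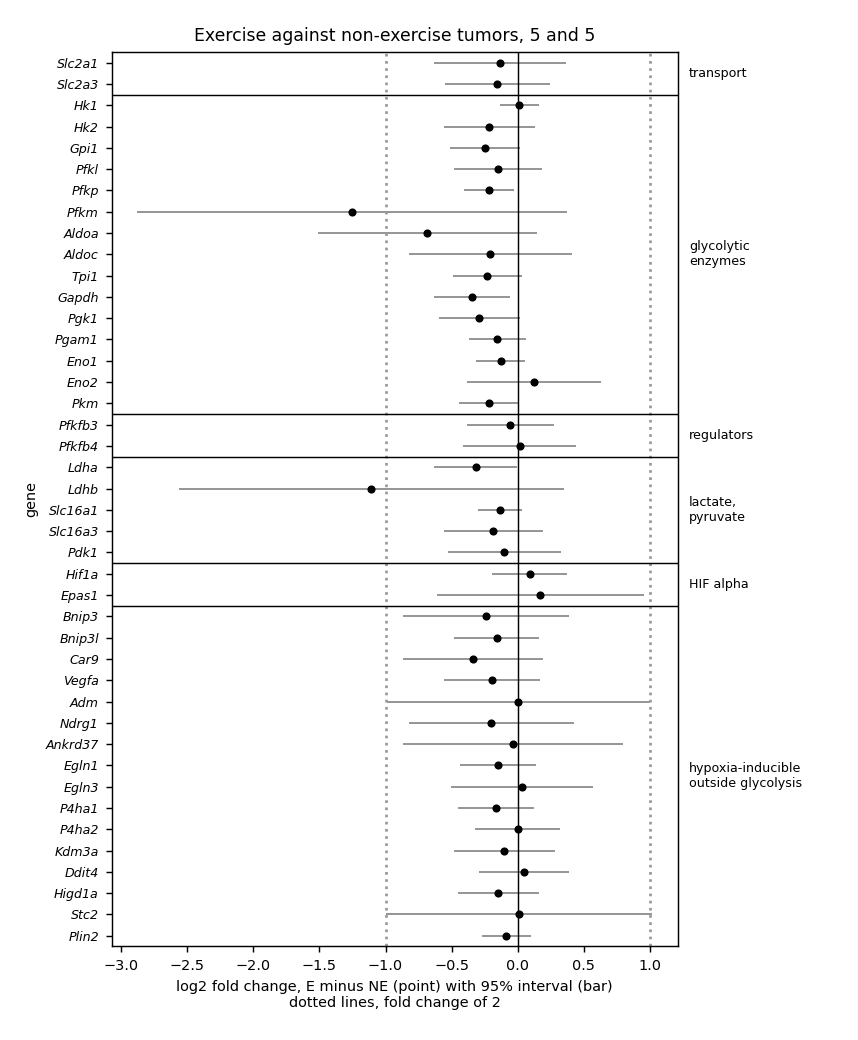
Fitted log2 fold change (E minus NE) of each gene with its 95% interval, by role, from 5 E and 5 NE tumors; dotted lines mark a fold change of 2. Most points lie slightly left of 0, and the intervals of Pfkp, Gapdh and Ldha end just below it, while those of Pfkm and Ldhb are the widest.

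Glucose enters tumor cells mainly through the transporters GLUT1, encoded by Slc2a1, and GLUT3, encoded by Slc2a3. Slc2a1 had 142, 93.9, 198, 120.0 and 139 CPM in E1 to E5 and 147, 128, 134, 118 and 235 CPM in NE1 to NE5. The groups overlapped, and the highest tumor was NE5. The log2 fold change was -0.13 ± 0.23 (SE, n = 5 and 5) for Slc2a1 and -0.15 ± 0.18 for Slc2a3, neither past the threshold (FDR 0.944 and 0.914, edgeR). Without NE5 they were 0.08 and -0.04, so the sign of Slc2a1 turned with that tumor. Slc2a1 held 90.3% to 94.9% of the summed FPKM of both transporters in every tumor, with a mean share of 92.4% ± 1.49 among E tumors and 92.5% ± 1.45 among NE tumors (SD of 5).

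Of the 15 glycolytic enzymes, 13 had a log2 fold change below 0, with a median of -0.22 for the group. Gapdh, which oxidizes glyceraldehyde 3-phosphate, lies on the reverse strand of chromosome 6 (GRCm38 chr6:125161715-125166467). It had 437, 406, 321, 366 and 364 CPM in E and 441, 427, 394, 616 and 534 CPM in NE. NE1, NE4 and NE5 were above all E tumors, while NE2 and NE3 overlapped with E1 and E2. The log2 fold change was -0.35 (95% interval -0.64 to -0.06, unadjusted p = 0.0218, FDR 0.897, edgeR). Without NE4 it was -0.24, with unadjusted p = 0.0501. Pfkp, the platelet type of phosphofructokinase, had 263, 218, 259, 220.0 and 209 CPM in E and 263, 265, 261, 255 and 313 CPM in NE. The 5 NE tumors lay close together apart from NE5, and E1 and E3 lay among them. Its log2 fold change was -0.22 ± 0.09 (SE; unadjusted p = 0.0287, FDR 0.897, edgeR), and without NE5 it was -0.16 with unadjusted p = 0.0763.

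Pgk1 had 914, 769, 1136, 790.3 and 754 CPM in E against 1022, 937, 953, 1057 and 1372 CPM in NE. E3 and NE5 were the highest of their groups, and 4 of the 25 pairs of an E and an NE tumor had the E tumor higher. The log2 fold change was -0.29 ± 0.14 (unadjusted p = 0.0605, edgeR). Gpi1, which turns glucose 6-phosphate into fructose 6-phosphate, and Pkm had values of like size (-0.25 ± 0.12 and -0.22 ± 0.10). Tpi1, Hk2, Pgam1, Pfkl and Eno1 followed with log2 fold changes between -0.23 and -0.13, and the intervals of all 5 included 0. Hk1 stood apart from the other enzymes. It varied least of the 42 genes, from 242 to 278 CPM in E and from 241 to 294 CPM in NE, with a log2 fold change of 0.01 (95% interval -0.13 to 0.16). The low paralogs Aldoc and Eno2, which are best known from brain, had log2 fold changes of -0.21 ± 0.28 and 0.12 ± 0.23.

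The regulators Pfkfb3 and Pfkfb4 make fructose 2,6-bisphosphate, the activator of phosphofructokinase. Their log2 fold changes were -0.06 ± 0.15 and 0.01 ± 0.19. Pfkfb3 was highest in NE4 (112 CPM) and E5 (107 CPM) and lay between 66.3 and 96.03 CPM in the other 8 tumors.

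All 5 genes of lactate and pyruvate handling had log2 fold changes below 0, with a median of -0.18. Without NE5 the median was -0.08 with 4 of 5 below 0, as Pdk1 turned to 0.05, and without E3 it was -0.28. Ldha lies on the forward strand of chromosome 7 (GRCm38 chr7:46841475-46855627). It had 1076, 950.1, 1118, 836 and 910.3 CPM in E and 1119, 1009.6, 1006, 1639 and 1319 CPM in NE. E1 and E3 were above NE2 and NE3, E3 lay just under NE1, and NE4 and NE5 were well above every E tumor. The log2 fold change was -0.32 (95% interval -0.63 to -0.00, unadjusted p = 0.0486, FDR 0.897, edgeR), and without NE4 it was -0.19 with unadjusted p = 0.118. The lactate exporters gave smaller values. Slc16a1, which encodes MCT1, had a log2 fold change of -0.13 ± 0.08, and the hypoxia-responsive exporter Slc16a3 (MCT4) one of -0.18 ± 0.17. Slc16a1 made up 82.1% ± 2.30 of the summed FPKM of the pair in E and 81.7% ± 2.71 in NE. Pdk1, a kinase that inhibits pyruvate dehydrogenase, had the value nearest 0 of these 5 genes. It had 112, 97.2, 174, 106 and 102 CPM in E and 128, 125, 109, 96.5 and 176 CPM in NE, with E3 and NE5 far above the rest, and a log2 fold change of -0.10 ± 0.19.

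The alpha subunits Hif1a and Epas1 were the only role group in which both genes had positive values, 0.09 ± 0.13 and 0.17 ± 0.35. HIF alpha is controlled mainly by protein stability, which mRNA does not show. Hif1a had 221, 197, 230.0, 224 and 275 CPM in E and 156, 223, 255, 219 and 226 CPM in NE. NE1 was the lowest and E5 the highest, with the rest close together. Epas1, which encodes HIF-2 alpha and is rich in endothelial cells, had 59.6 CPM in E5 and 58.6 CPM in NE4 and 19.97 to 33.7 CPM in the other 8 tumors. Without NE4 its log2 fold change was 0.56 and without E5 it was -0.13, so the sign turned with a single tumor.

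The 16 hypoxia-inducible genes outside glycolysis had a median log2 fold change of -0.12, with 12 below 0 and 4 above. None reached an unadjusted p of at most 0.05. Car9 had the lowest value (-0.34 ± 0.24), followed by Bnip3 (-0.24 ± 0.28), the stress gene Ndrg1 (-0.20 ± 0.28) and Vegfa (-0.19 ± 0.16), the main growth factor of blood vessels. The intervals of all 4 included 0. The values nearest 0 were those of P4ha2, the vasodilator peptide Adm and Stc2, where the interval for Adm still ran from -0.99 to 0.999. The prolyl hydroxylases Egln1 and Egln3, which sense oxygen and are themselves induced by HIF, had -0.15 ± 0.13 and 0.03 ± 0.24. Without NE4 the value of Egln3 was -0.09. The median of the 16 genes was -0.00 without NE5, with 9 below 0, and -0.25 without E3, with 15 below 0.

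Most hypoxia-inducible genes were highest in E3 and NE5, 1 tumor of each group. This pair was picked after the values were seen and carries no test. Bnip3, a mitophagy receptor on the reverse strand of chromosome 7 (GRCm38 chr7:138890836-138909519), had 41.7, 31.2, 79.9, 38.9 and 37.4 CPM in E and 51.8, 45.7, 39.3, 46.7 and 86.9 CPM in NE. E3 and NE5 were each far above the other 4 tumors of their group. E3 and NE5 were the 2 highest of the 10 tumors in 11 of the 16 genes (68.8%), namely Bnip3, Bnip3l, Adm, Ndrg1, Ankrd37, Egln1, Egln3, P4ha2, the histone demethylase Kdm3a, the mTORC1 inhibitor Ddit4 and Higd1a. The same held for 1 of the 15 glycolytic enzymes (Pgk1), for Slc2a1 and Pdk1, and for 3.47% of all genes tested (469 genes). NE5 alone was the highest of the 10 tumors in 10 of the 16 genes and 8 of the 15 glycolytic enzymes, against 5.32% of all genes. For E3 alone these numbers were 3 and 0, against 13.8% of all genes.

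**Figure D3:**
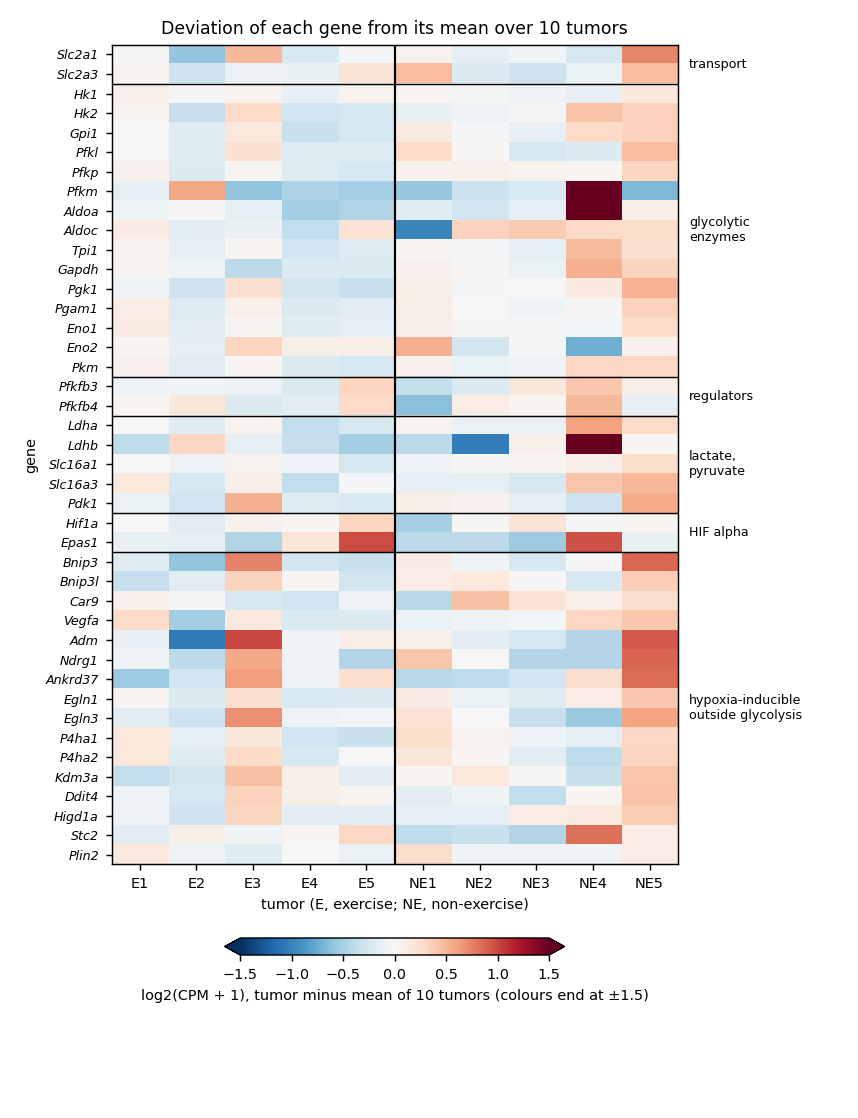
Log2(CPM + 1) of each gene in each tumor minus its mean over the 10 tumors, red above and blue below, with colours ending at 1.5 either way. The columns of E3 and NE5 are red through most hypoxia-inducible rows, and NE4 is darkest in Pfkm, Aldoa and Ldhb.

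Adm had 4.02, 1.63, 9.93, 4.26 and 4.88 CPM in E and 4.80, 3.88, 3.62, 3.03 and 9.36 CPM in NE. Egln3 had 132, 118, 238, 140.1 and 143 CPM in E and 171, 146, 116, 100.04 and 222 CPM in NE. Ankrd37, a small ankyrin repeat protein, had 2.15, 2.78, 6.15, 3.46 and 4.49 CPM in E and 2.46, 2.53, 2.78, 4.495 and 7.22 CPM in NE. In each of these 3 genes E3 and NE5 were on top while the lowest tumor differed. The largest ratio of highest to lowest tumor among the 16 genes was that of Adm (6.11), followed by Stc2 (5.03), Ankrd37 (3.35) and Bnip3 (2.79). The 5 genes that left the pattern were Car9, Vegfa, P4ha1, Stc2 and Plin2. Vegfa was highest in NE5 (114 CPM), NE4 (106 CPM) and E1 (104 CPM), and Car9 was highest in NE2 (3.34 CPM). Plin2 varied little, with a ratio of 1.36 between NE1 and E3.

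E3 and NE5 were not the tumors with most muscle RNA, with summed muscle markers of 308 and 130.3 CPM against 30459.6 CPM in NE4. Their depth (20611941 and 21388798 reads) lay within the range of the other libraries. NE5 also had the highest sum of epithelial markers, 110.4 CPM against 27.1 to 42.2 CPM in the other tumors, while E3 had 35.6 CPM. The part of these values in the pattern was not tested. Across the 10 tumors, Bnip3 and Pgk1 varied together on log2(CPM + 1), with Pearson's r of 0.911 (permutation p = 6e-05, adjusted p = 0.00036 over 6 relations) and Spearman's rho of 0.939 (permutation p = 0.00023, adjusted p = 0.00069). Without E5 and NE5, the tumors farthest from the median of Pgk1, r was 0.860. Vegfa and Car9 gave r of 0.295 (permutation p = 0.405, adjusted p = 0.486) and rho of 0.503 (permutation p = 0.143, adjusted p = 0.215), and without NE1 and NE2 r was 0.439.

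The promoters of genes that were high in E3 and NE5 are given here to show where the letters of the HIF core occur. Ldha, a glycolytic target, is added. It was highest in NE4 (1639 CPM), then in NE5 (1319 CPM), and E3 (1118 CPM) was its highest E tumor. The sequences are from RefSeq (GRCm38.p6), 5′ to 3′ on the strand of the gene, and hold the bases before an annotated start of transcription that lie in no annotated exon. They are Bnip3 (chr7:138909520-138909756, reverse), Ankrd37 (chr8:45999868-46000100, reverse), Egln3 (chr12:54203875-54204124, reverse), Adm (chr7:110627407-110627656, forward), Pgk1 (chrX:106186850-106187099, forward) and Ldha (chr7:46845554-46845803, forward). Capitals mark ACGTG or GCGTG on the strand shown, or CACGT or CACGC, which are the same motifs on the other strand. CACGTG therefore holds ACGTG on both strands, and neighbouring matches can overlap.
Bnip3: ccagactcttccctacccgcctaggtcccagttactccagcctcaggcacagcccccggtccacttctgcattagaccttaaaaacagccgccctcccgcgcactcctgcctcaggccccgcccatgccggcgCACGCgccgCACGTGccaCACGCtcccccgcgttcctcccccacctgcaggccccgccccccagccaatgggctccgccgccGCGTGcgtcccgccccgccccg
Ankrd37: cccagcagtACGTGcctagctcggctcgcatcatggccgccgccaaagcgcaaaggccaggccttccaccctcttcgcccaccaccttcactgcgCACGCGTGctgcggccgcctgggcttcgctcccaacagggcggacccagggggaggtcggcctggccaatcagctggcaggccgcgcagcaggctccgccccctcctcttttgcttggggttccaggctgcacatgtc
Egln3: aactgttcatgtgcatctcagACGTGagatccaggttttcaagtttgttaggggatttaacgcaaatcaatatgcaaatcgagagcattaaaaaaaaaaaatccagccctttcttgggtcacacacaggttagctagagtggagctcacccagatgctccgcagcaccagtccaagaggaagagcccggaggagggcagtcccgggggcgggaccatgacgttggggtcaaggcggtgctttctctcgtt
Adm: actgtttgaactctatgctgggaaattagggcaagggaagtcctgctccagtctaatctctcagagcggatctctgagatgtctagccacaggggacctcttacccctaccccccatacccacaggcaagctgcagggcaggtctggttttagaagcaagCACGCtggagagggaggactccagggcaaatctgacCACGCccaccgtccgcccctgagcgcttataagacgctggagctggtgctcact
Pgk1: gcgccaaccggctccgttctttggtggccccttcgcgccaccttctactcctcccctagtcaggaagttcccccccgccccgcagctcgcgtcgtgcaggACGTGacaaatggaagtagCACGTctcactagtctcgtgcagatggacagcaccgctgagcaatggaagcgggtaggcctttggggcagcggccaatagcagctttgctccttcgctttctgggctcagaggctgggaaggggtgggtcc
Ldha: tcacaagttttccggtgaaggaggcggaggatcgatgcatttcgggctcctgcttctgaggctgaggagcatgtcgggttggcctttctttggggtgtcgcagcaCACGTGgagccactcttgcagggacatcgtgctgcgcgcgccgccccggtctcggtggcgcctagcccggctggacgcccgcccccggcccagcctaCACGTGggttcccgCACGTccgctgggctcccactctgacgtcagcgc
The stretch of Bnip3 held 5 matches and that of Ldha 5, Ankrd37 held 3, Adm and Pgk1 held 2 each, and Egln3 held 1. Adm had GCGTG matches only. RefSeq promoters of 300 bases, from 250 before to 50 after the start, were at hand for 38 of the 42 genes (54 promoters), with none for Slc2a3, Epas1, Ndrg1 and Bnip3l. ACGTG on either strand was in 53.7% of these 54 promoters, against 19.6% of all 32851 promoters and 24.6% of the promoters of genes tested. It was in 11 of the 17 promoters of hypoxia-inducible genes (64.7%) and in 11 of the 25 promoters of glycolytic enzymes (44.0%). Either motif was in 79.6% of the 54 promoters, 43.8% of all promoters and 59.9% of the promoters of genes tested. These are counts of letters in a fixed window and show no binding. The genes were listed for their roles in glycolysis and hypoxia, where known HIF targets are common, so the higher share is no independent finding. Promoters of the same gene, such as the 4 of Pfkm, are not independent either.

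NE4 led in other genes of the list, Pfkm, Aldoa and Ldhb. Pfkm, the muscle phosphofructokinase on the forward strand of chromosome 15 (GRCm38 chr15:98092589-98132451), had 85.2, 141, 62.3, 68.1 and 66.1 CPM in E and 63.2, 75.5, 80.7, 729 and 59.1 CPM in NE. NE4 was far above every other tumor, and E2 was the next. Aldoa had 886, 935, 836, 644 and 675 CPM in E and 814, 761, 836, 2989 and 989.7 CPM in NE. Ldhb, the heart type of lactate dehydrogenase, had 37.8 CPM in NE4 and 2.53 to 7.97 CPM in the other 9 tumors. NE4 was the highest tumor in all 3 genes, and the groups overlapped in each. The log2 fold changes were -1.25 ± 0.73 for Pfkm, -0.68 ± 0.37 for Aldoa and -1.11 ± 0.66 for Ldhb (SE; unadjusted p = 0.117, 0.095 and 0.121, edgeR). Without NE4 they were 0.29, -0.09 and 0.10, so the 2 largest values among the 42 genes turned sign with 1 tumor.

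The 2 tumors with most muscle RNA were NE4 (summed markers 30459.6 CPM) and E2 (4209 CPM), the same order as for Pfkm. Pfkm followed the muscle score, the mean of log2(CPM + 1) over the 12 markers, with r of 0.823 (permutation p = 0.00013, adjusted p = 0.00039 over 6 relations) and rho of 0.952 (permutation p = 0.00019, adjusted p = 0.00069). Without NE1 and NE4 r was 0.913. In a fit with the muscle score as a covariate, the log2 fold change was -0.74 for Pfkm and -0.59 for Aldoa (unadjusted p = 0.0470 and 0.0284, FDR 0.627 and 0.571, edgeR), while Gapdh and Ldha had -0.36 and -0.32, close to the values without it. The muscle score was 10.1 in NE4, 0.472 in NE1 and 2.87 to 7.32 in the other tumors, so that NE4 and NE1 weigh most in this fit. Ldha, Tpi1 and Gapdh were also highest in NE4, at 1639, 1152 and 616 CPM, and NE5 was second in each. The part of muscle RNA in these values was not tested beyond the fits without NE4 and with the covariate. NE4 also had the highest sums of adipocyte markers (339 CPM, others 19.9 to 89.2) and erythroid markers (61.3 CPM, others 7.22 to 34.4). The part of these was not tested.

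**Figure D4:**
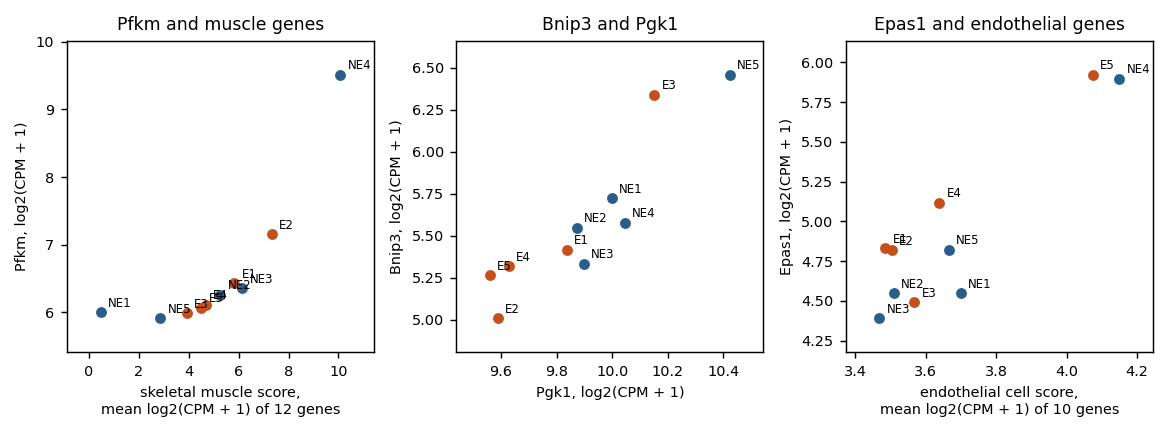
3 of the 6 relations, 1 point per tumor on log2(CPM + 1) scales with E in orange and NE in blue. Pfkm rises with the skeletal muscle score (r = 0.823) and NE4 stands alone at the top, Bnip3 rises with Pgk1 (r = 0.911) with E3 and NE5 at the upper end, and Epas1 follows the endothelial score only through E5 and NE4 (r = 0.905, and 0.28 without them).

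The relation of Epas1 with the endothelial score (10 markers) rested on E5 and NE4. Over the 10 tumors r was 0.905 (permutation p = 0.00612, adjusted p = 0.0122), rho was 0.576 (permutation p = 0.0902, adjusted p = 0.18), and without these 2 tumors r was 0.28. The summed endothelial markers were 186 to 280.2 CPM in E and 177 to 276 CPM in NE, and none of the 10 had 0 reads in any tumor. E5 also had the highest sum of fibroblast markers (16239.6 CPM, against 1048 to 5484 CPM in the other tumors), whose part was not tested. Slc2a3 with the neutrophil score gave r of 0.133 and Plin2 with the macrophage or monocyte score gave r of -0.553, with permutation p of 0.715 and 0.101 and adjusted p of 0.715 and 0.152. Their rho were 0.309 and -0.176 (permutation p = 0.389 and 0.632, adjusted p = 0.466 and 0.632), and r without the 2 farthest tumors was 0.486 and 0.483.

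In 9 of the 12 sets of paralogs the same gene led in every tumor. Ldha made up 95.4% to 99.5% of the summed FPKM of Ldha and Ldhb, Aldoa 98.8% to 99.7% of the aldolase pair and Eno1 98.8% to 99.5% of the enolase pair, and the lowest Ldha share was that of NE4. Hk1 and Hk2 were close to even. Hk1 held 53.9% ± 4.08 in E against 49.9% ± 4.72 in NE (SD of 5 tumors), a difference within the spread. Among the phosphofructokinases, Pfkl held 35.9% to 55.6% in 9 tumors but 11.9% in NE4, where Pfkm held 81.0%. Bnip3 was 29.1% ± 5.07 of the Bnip3 and Bnip3l pair in E and 30.5% ± 4.77 in NE, and its highest shares were those of NE5 (37.3%) and E3 (36.1%). P4ha1 held 80.3% ± 1.63 of its pair in E and 82.2% ± 0.96 in NE. The groups overlapped for all 12 sets.

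**Figure D5:**
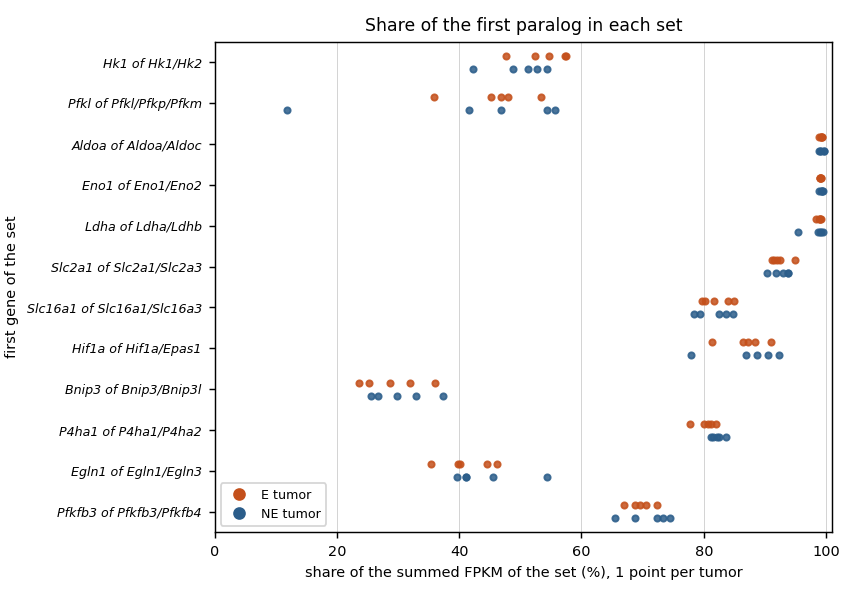
Share of the gene named first in the summed FPKM of its set (percent), 1 point per tumor, with E in orange and NE in blue. The groups overlap in all 12 sets, and the lone blue point at the left of the Pfkl row is NE4 (11.9%).

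The spread between tumors of a group differed widely among the 42 genes. The median SD of log2 CPM within groups was 0.221 for the glycolytic enzymes, 0.296 for lactate and pyruvate handling and 0.273 for the hypoxia-inducible genes, against 0.177 over all genes tested, and 35 of the 42 genes were above that median. The most variable were Pfkm (SD 1.13), Ldhb (0.954), Adm (0.640) and Aldoa (0.608), and the steadiest were Hk1 (0.0971) and the lactate transporter Slc16a1 (0.117). Between the lowest and the highest tumor, Pfkm differed 12.3-fold and Hk1 1.22-fold.

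The other genes of these pathways were taken from lists of pathway genes. Of 31 further glycolysis and pyruvate genes, 25 were tested, 19 had a log2 fold change below 0 and 6 above, none reached an unadjusted p of at most 0.05, and the median was -0.17. The 3 with the smallest p were the pyruvate transporter Slc16a7 (0.49 ± 0.25, unadjusted p = 0.0784), the muscle enolase Eno3 (-1.81 ± 0.94, unadjusted p = 0.081) and the glycerol 3-phosphate dehydrogenase Gpd1 (-2.32 ± 1.25, unadjusted p = 0.0931). Eno3 had 1012 CPM in NE4 and 33.8 to 141 CPM elsewhere, and the muscle phosphoglycerate mutase Pgam2 had 312 CPM in NE4 and 2.61 to 36.1 CPM elsewhere. NE4 was the highest of the 10 tumors in 16 of these 25 genes, against 19.7% of all genes tested. Of 33 further genes of the HIF pathway, 32 were in the table and 31 were tested, with 16 below 0 and 15 above, none at an unadjusted p of at most 0.05, and a median of -0.00. The 3 with the smallest p were the cytokine Mif (-0.22 ± 0.10, unadjusted p = 0.0567), the carbonic anhydrase Car12 (-0.50 ± 0.25, unadjusted p = 0.0667) and the mitochondrial protein Fam162a (-0.32 ± 0.16, unadjusted p = 0.0707). E3 and NE5 were the 2 highest tumors in 6 of these 31 genes, against 3.47% of all genes tested.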

How the data were processed

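mRNA of 10 tumors, 5 exercise (E) and 5 non-exercise (NE), grouped and numbered by their labels, had been sequenced by the authors as paired-end libraries, aligned with Hisat2 and quantified with Stringtie. The table deposited by the authors gives raw counts of reads and FPKM, per gene and tumor. Each deposited FPKM is the count divided by gene length and total count (largest relative deviation 3.79e-14), so no TMM factor is in them. The methods name a rat assembly, while the identifiers are those of mouse. The build of the table's coordinates is not given in the sources used here. Positions are those of GRCm38, matched by identifier.

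From the counts, edgeR 4.0.16 in R 4.3.3 (TMM, filterByExpr, glmQLFit, glmQLFTest, Benjamini-Hochberg over all 13517 genes tested) gave log2 fold changes, E minus NE, with their SE. The study's call rule was used (fold change of at least 2, FDR of at most 0.05). No count test is named in the study's methods for these libraries. Other fits used DESeq2 1.42.0, the exact test of edgeR, limma 3.58.1 (voom with sample weights, and trend on log2(FPKM + 1)), no TMM factor, other filters, the replicate number as a block, the muscle score as a covariate and leaving out tumors. Correlations used 100000 permutations (scipy 1.17.1), or all of them with 9 tumors, two-sided. Scripts were tested on simulated data. CPM of single genes include the TMM factor.

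The 42 genes, their roles and all lists were chosen with earlier results of these data known. The text names all 42 genes and, of the other pathway genes, the 3 with the smallest p per list with Pgam2 and Eno3. Each tumor is from 1 mouse, and p-values measure the spread between these tumors. Depth was 15045613 to 23092251 reads. No pair of libraries was alike within sampling noise (of 45 pairs, the lowest chi-square divided by its degrees of freedom was 7.51). The study speaks of matched pairs of tumors without saying how they were matched, and the labels name no pairs. The deviations of same-numbered E and NE tumors correlated with r between -0.325 and 0.316, and the numbers were not taken as pairs. Matching need not leave such a correlation, so a pairing by number is not excluded. The fit with the number as a block is an alternative.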

Additional observations from a re-analysis of the deposited data

Results flagged for a closer look

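In each group of 5 tumors, the distance of the highest or lowest value to its neighbour was compared with the group's range (Dixon's limit 0.71). This was done for the 43 rows in both groups, 86 groups of values. For independent and normally distributed values, about 1 in 20 (4.3) would be flagged. Genes of the same tumors are not independent, and the share flagged over all genes was not taken. The 4.3 is therefore no measure of an excess in these genes. There were 17 flagged values, 5 each in NE4 and NE5, 3 in E3, 2 in E2 and 1 each in E5 and NE1.

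In NE5, Slc2a1 (234.6 CPM, others of the group 118 to 147), Pfkp (313 CPM, others 255 to 265), Pgk1 (1372 CPM, others 937 to 1057), Bnip3 (86.9 CPM, others 39.3 to 51.8) and Adm (9.36 CPM, others 3.03 to 4.80) were far above the other NE tumors. In E3 the same held for Pdk1 (174 CPM, others 97.2 to 112), Bnip3 (79.9 CPM, others 31.2 to 41.7) and Egln3 (238 CPM, others 118 to 143).

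In NE4, Pfkm (729 CPM, others 59.1 to 80.7), Aldoa (2989 CPM, others 761 to 989.7), Ldhb (37.8 CPM, others 2.53 to 6.61), Epas1 (58.6 CPM, others 19.97 to 27.3) and the upstream row that carries the symbol Aldoa (14.04 CPM, others 0.618 to 1.28) stood apart. In E2, Pfkm (141 CPM, others 62.3 to 85.2) and the same upstream row (2.89 CPM, others 1.11 to 1.48) were high. Pfkfb3 was high in E5 (107 CPM, others 72.7 to 82.0), and Aldoc was low in NE1 (3.27 CPM, others 9.17 to 10.1).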

How the results depend on the processing

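No alternative brought any of the 42 genes past both limits of a call, fold change and FDR, and 3 genes would be called if an unadjusted p of at most 0.05 alone sufficed. In edgeR's quasi-likelihood test, 3 of the 42 genes had an unadjusted p of at most 0.05, beside 657 of all 13517 genes tested. The number was 1 in edgeR's exact test (352 of 13517), 6 with DESeq2 (846 of 17479) and 7 with limma-voom and sample weights (1800 of 13517). It was 5 with the muscle score as a covariate (1069 of 13517) and 1 with both NE4 and E5 left out (340 of 13497). Leaving out 1 tumor at a time gave 0 (without NE5, 579 of all 13609 genes) to 7 (without E3, 772 of all 13621 genes). With the replicate number as a block it was 1 (714 of all 13517 genes). In that edgeR fit Gapdh kept an unadjusted p of 0.0304, while Pfkp and Ldha had 0.0607 and 0.124. Only number 5 matched its own number best, which does not exclude that the tumors were matched by number. The cause of these shifts was not tested. The role medians moved by less than the SD between tumors of the role's mean log2 CPM, though single tumors changed their size or sign as given with the results. With shares of summed counts in place of FPKM, the differences between E and NE in the 12 paralog sets moved by less than 1 SD, but the shares themselves depend on gene length (Hk1 in E 62.5% of counts against 53.9% of FPKM). Without the TMM factor the median spreads moved by less than their error. Of the 42 genes, 25 kept the sign of their log2 fold change under all 20 alternatives, or under those that tested them.

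With 1 tumor left out in turn, r ranged from 0.758 to 0.929 for Pfkm and the muscle score, 0.844 to 0.944 for Epas1 and the endothelial score, -0.318 to 0.432 for Slc2a3 and the neutrophil score, -0.741 to 0.159 for Plin2 and the macrophage or monocyte score, 0.842 to 0.931 for Bnip3 and Pgk1 and 0.162 to 0.425 for Vegfa and Car9. Pfkm lost its adjusted p of at most 0.05 without NE4 (r = 0.758), and Epas1 without E5 (0.854) or NE4 (0.844). Plin2 gained it without E3 (-0.741) and turned sign without NE1 (0.159), as Slc2a3 did without E5 (-0.318).

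The lowest genes rest on the fewest reads. In the shallowest library the limit that a count of 0 allows was 0.199 CPM, the value of 3 reads, for counting error only.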
